A study of Mus musculus with 8 samples.

Results

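The genes described here are 9 genes of GABAergic neurons, namely Gad1, Gad2, Slc32a1, Dlx1, Dlx6, Lhx6, Sox6, Prox1 and Erbb4, compared between dorsal and ventral medial entorhinal cortex (MEC). They were taken by symbol, as genes needed to make and store GABA and genes that set or mark interneuron lineage, and were chosen, like the ratios tested below, with earlier results of these data known. All 9 matched 1 gene each among the 38553 genes of the deposited table, and all 9 were among the 13674 genes that were tested, since each had enough alignments and a mean of at least 1 FPKM over the 8 libraries (FPKM is the fragments of a gene, divided by the length of its exons and by the library's mapped fragments). There were 4 dorsal and 4 ventral RNA-Seq libraries. The animals were 13 males of the strain C57BL/6JolaHsd, 8 weeks old, with no treatment or allele named in the labels of either group, and both regions were dissected from a sagittal slice of 400 µm through the MEC of the right side. Tissue from 3 or 4 mice was pooled in each of 4 groups of mice, so that a library averages several animals and the spread is between pools. The microdissected tissue holds all the cells of the region, so that fewer cells of a type and less RNA per cell cannot be told apart in any value below. The question put to these genes was whether general GABAergic genes and genes of the medial and caudal ganglionic eminence lineages had the same dorsoventral difference.

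GABAergic neurons make GABA from glutamate with glutamic acid decarboxylase, which Gad1 and Gad2 encode, and load it into synaptic vesicles with the transporter encoded by Slc32a1. Cortical interneurons are born in the ganglionic eminences of the ventral forebrain, where homeobox factors of the Dlx family set the GABAergic programme, and migrate into the cortex. Lhx6 and Sox6 act in interneurons from the medial eminence, which become parvalbumin and somatostatin cells, Prox1 acts in those from the caudal eminence, which include VIP and calretinin cells, and Erbb4 is a receptor for neuregulins that is enriched in interneurons.

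Libraries are called dorsal 1 to 4 and ventral 1 to 4, where the number is a name and pairs nothing. The headers of the FPKM columns named the other region for 4 of the 8 libraries, namely dorsal 2, dorsal 4, ventral 1 and ventral 3. The regions used here are those whose means equal the authors' mean FPKM of each condition, within 0.1% for 13840 of 13845 genes, whereas the next best of the 70 ways to divide the columns matched 375 genes. The log2 fold changes and ratios of the 9 genes are also given under the headers' regions and in the 4 libraries on which both sources name the same region. Depth relative to the median library lay between 0.813 and 1.26. Of the genes tested, 294 (2.15%) were called higher in dorsal MEC (D>V) and 198 (1.45%) higher in ventral MEC (V>D), at a Benjamini-Hochberg adjusted p under 0.05 by limma and a ratio of mean FPKM beyond 20%. Under the headers' regions these counts were 1 and 0, with 721 genes at an unadjusted p under 0.05, and in the 4 libraries they were 0 and 0, with 1240 such genes. All 8 of the 8 oligodendrocyte markers were called D>V. Their summed level was 833 to 1108 FPKM in the dorsal libraries and 458 to 602 FPKM in the ventral libraries. No call fell on the 7 general neuron markers. Before adjustment 2 of them had p under 0.05 by limma, against 16.0% of all genes tested. Their summed level was 4165 to 5408 FPKM in the dorsal and 3608 to 4614 FPKM in the ventral libraries.

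The bases just before annotated starts of Gad1, Gad2 and Lhx6 are shown because these are the genes on which the comparisons below turn. The sequences are from RefSeq on GRCm38.p6 and are read 5′ to 3′ towards the gene. They stop where the first untranslated base of any GENCODE M21 transcript begins. Capitals mark the letters TAATT, a core that many homeodomain factors bind, which was searched on both strands (as TAATT or AATTA) in the 250 bases before each start.
Gad1, chr2:70561879-70562041, plus strand: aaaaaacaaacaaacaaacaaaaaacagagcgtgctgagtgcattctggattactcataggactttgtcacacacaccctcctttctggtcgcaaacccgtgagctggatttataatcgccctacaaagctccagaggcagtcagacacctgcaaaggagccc
Gad2, chr2:22622077-22622204, plus strand: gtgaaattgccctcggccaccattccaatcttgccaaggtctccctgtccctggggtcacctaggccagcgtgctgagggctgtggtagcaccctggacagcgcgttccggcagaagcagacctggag
Lhx6, chr2:36104061-36104310, minus strand: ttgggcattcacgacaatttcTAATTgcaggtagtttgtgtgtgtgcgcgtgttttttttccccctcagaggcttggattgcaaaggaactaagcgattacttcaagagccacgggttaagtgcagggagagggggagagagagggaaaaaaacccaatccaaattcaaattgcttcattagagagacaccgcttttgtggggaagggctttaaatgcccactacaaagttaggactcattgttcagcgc
The table of starts held 16 starts for 8 of the 9 genes, with no entry for Dlx6. TAATT stood before 3 of these 16 starts, 1 of the 3 of Lhx6 and 2 of the 6 of Sox6, and in 25.0% of the 32851 windows of the same length over all genes. The Lhx6 match began 229 bases before a start that lies inside longer annotated transcripts of the gene. No match was found in the windows of Gad1 and Gad2, and a match of letters is no evidence of binding.

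None of the 9 genes was called by limma, against 3.6% of all genes tested. At an unadjusted p under 0.05 by limma there were 4 of the 9, namely Gad1, Gad2, Lhx6 and Prox1, against 16.0% of all genes tested. The log2 ratio of mean FPKM, ventral over dorsal, was above 0 for 7 of the 9 genes and below 0 for Gad1 and Prox1, with a median of 0.07 beside -0.01 over all genes tested. The 95% interval of the log2 fold change lay within 20% of no difference for 3 genes, Slc32a1, Sox6 and Erbb4, and reached beyond 20% for the other 6.

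In level, the genes spanned a wide range. Gad2 had the highest mean over the 8 libraries at 65.3 FPKM, followed by Gad1 at 57.9 FPKM, Erbb4 at 20.8 FPKM, Dlx1 at 12.5 FPKM, Slc32a1 at 7.46 FPKM, Sox6 at 6.07 FPKM, Lhx6 at 6.05 FPKM, Prox1 at 3.98 FPKM and Dlx6 at 2.17 FPKM. FPKM divides by exon length, which allows for the length of the genes. Whether other differences between genes, such as reads of overlapping partners, shape this order was not tested. The libraries of Gad2 and Gad1 overlapped in dorsal MEC and those of Sox6 and Lhx6 in both regions. The libraries of Lhx6 and Prox1 overlapped in dorsal MEC only and those of Prox1 and Dlx6 in ventral MEC only, whereas all other neighbours in this order were apart in both regions.

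**Figure D1:**
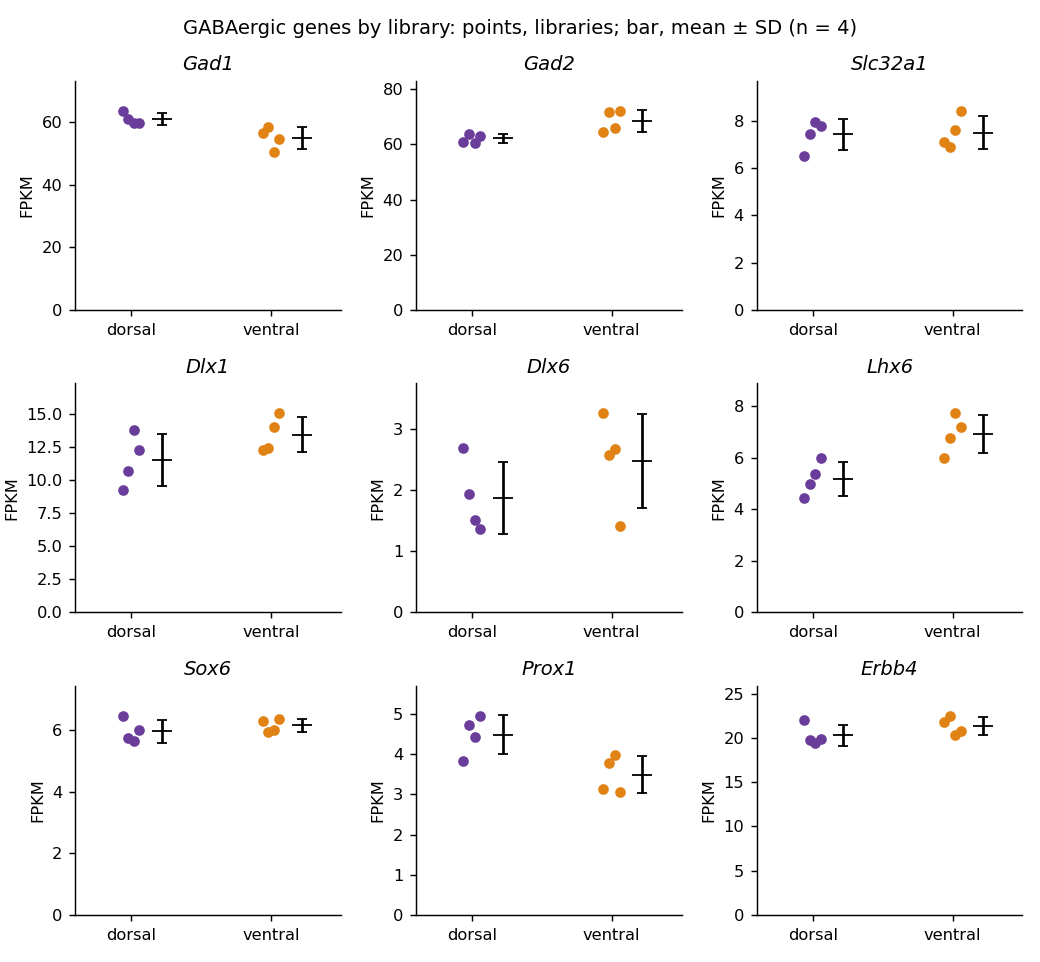
FPKM of each of the 9 genes (vertical axes, each from 0) in the 4 dorsal and 4 ventral libraries (points), with the mean ± SD of each region beside them. The libraries of the regions do not overlap for Gad1, with 59.6 to 63.5 FPKM in dorsal and 50.3 to 58.4 FPKM in ventral MEC, or for Gad2, with 60.7 to 63.9 and 64.3 to 72.1 FPKM.

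The 2 GABA-synthesizing enzymes differed in opposite directions, each by about as much as the other, and neither was called. Gad1 encodes the larger form, which supplies GABA throughout the cell. Its level was 63.5, 61.0, 59.6 and 59.7 FPKM in dorsal libraries 1 to 4 and 56.5, 58.4, 50.3 and 54.4 FPKM in ventral libraries 1 to 4. Every dorsal library lay above every ventral library, by 1.14 FPKM at the nearest pair, as in 6.17% of all genes tested. The means were 60.9 ± 1.85 FPKM (SD, n = 4) and 54.9 ± 3.49 FPKM (n = 4), and the log2 fold change, ventral over dorsal, was -0.15 ± 0.06 (SE; adjusted p = 0.276 by limma). A pseudogene with a near copy of this sequence, Gad1-ps, was at 0.718 ± 0.155 FPKM in dorsal and 0.596 ± 0.189 FPKM in ventral MEC (SD, n = 4 each), and how the authors' program shared fragments between the copies is not given in the sources used here.

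Gad2 encodes the smaller form, which is bound to synaptic vesicles. Its level was 60.9, 63.9, 60.7 and 63.1 FPKM in the dorsal libraries and 64.3, 71.7, 65.9 and 72.1 FPKM in the ventral libraries. Every ventral library lay above every dorsal library, ventral 1 only by 0.377 FPKM, as in 4.95% of all genes tested. The means were 62.2 ± 1.63 FPKM and 68.5 ± 3.98 FPKM (SD, n = 4 each), with a log2 fold change of 0.14 ± 0.06 (SE; adjusted p = 0.302 by limma). Under the headers' regions the log2 fold change was 0.03 for Gad1 and 0.10 for Gad2, and in the 4 libraries with matching headers it was -0.12 and 0.24 (adjusted p from 0.511 to 0.987 by limma). Gad1 and Gad2 were thus 2 of 9 genes whose regions did not overlap, against 11.1% of all genes tested.

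Set against each other within a library, the balance lay further towards Gad2 in ventral MEC. This ratio was taken up after the values had been seen and is given as a description, with no test. The ratio of Gad2 to Gad1 FPKM was 0.958, 1.05, 1.02 and 1.06 in the dorsal libraries and 1.14, 1.23, 1.31 and 1.32 in the ventral libraries. The mean ratio was 1.02 ± 0.0451 in dorsal and 1.25 ± 0.0862 in ventral MEC (SD, n = 4 each). The sum of both enzymes was 120 to 125 FPKM in the dorsal and 116 to 130 FPKM in the ventral libraries, with means of 123.1 ± 2.10 and 123.4 ± 6.15 FPKM. The ventral range of this sum took in the whole dorsal range, so that the regions were apart in the ratio of the enzymes and overlapped in their sum. In the 4 libraries with matching headers the mean ratio was 0.988 in dorsal and 1.28 in ventral MEC, and under the headers' regions it was 1.11 and 1.16.

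Slc32a1, the vesicular GABA transporter, showed the smallest difference of the 9 genes. It was at 6.51, 7.44, 7.94 and 7.79 FPKM in the dorsal libraries and at 7.08, 6.88, 7.62 and 8.41 FPKM in the ventral libraries. Dorsal 1 was the lowest and ventral 4 the highest, and the others were mixed. The log2 fold change was 0.01 ± 0.08 (SE) with a 95% interval from -0.18 to 0.20 (adjusted p = 0.968 by limma). An antisense gene, Gm14205, shares exon sequence with Slc32a1, and the strand setting of the counting is not given in the sources used here, so that reads of such partners could not be separated.

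The Dlx factors, which act early in the GABAergic programme and stay on in adult interneurons, had higher ventral means that did not pass the test. Dlx1 was at 9.27, 10.7, 13.9 and 12.3 FPKM in the dorsal libraries and at 12.3, 12.4, 14.0 and 15.1 FPKM in the ventral libraries. Dorsal 1, 2 and 4 were below every ventral library, dorsal 4 only just, whereas dorsal 3 lay within the ventral range. The log2 fold change was 0.22 ± 0.12 (SE; 95% interval -0.04 to 0.47; adjusted p = 0.409 by limma). It was 0.12 without dorsal 1, and 0.12 to 0.30 over all the fits without 1 library. The noncoding antisense partner Dlx1as was at 6.62 ± 0.582 FPKM in dorsal and 6.37 ± 0.306 FPKM in ventral MEC (SD, n = 4 each).

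Dlx6 was the lowest and most variable of the 9 genes. It was at 2.68, 1.93, 1.51 and 1.36 FPKM in the dorsal libraries and at 3.25, 2.56, 2.67 and 1.41 FPKM in the ventral libraries. Ventral 4 fell among the lowest dorsal libraries and dorsal 1 among the ventral ones. The SD was 31.7% of the mean in dorsal and 31.2% in ventral MEC, and the log2 fold change was 0.27 ± 0.19 (SE; 95% interval -0.16 to 0.69; adjusted p = 0.569 by limma). It was 0.43 without ventral 4 and 0.16 without ventral 1, the highest and lowest values of the fits without 1 library. The long noncoding RNA Dlx6as1, from the same locus, was at 7.38 ± 1.11 FPKM in dorsal and 6.73 ± 1.22 FPKM in ventral MEC (SD, n = 4 each), above Dlx6 itself. Its log2 fold change was -0.12 ± 0.13 (SE; adjusted p = 0.724 by limma).

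Among the lineage factors, Lhx6 had the largest ventral excess, short of the threshold. Lhx6, a LIM homeobox factor that interneurons of the medial eminence keep into adulthood, was at 4.44, 4.96, 5.36 and 6.00 FPKM in the dorsal libraries and at 5.98, 6.76, 7.72 and 7.20 FPKM in the ventral libraries. The regions overlapped through a single pair, dorsal 4 and ventral 1, which were nearly equal. The means were 5.19 ± 0.657 FPKM and 6.91 ± 0.738 FPKM (SD, n = 4 each), and the log2 fold change was 0.36 ± 0.10 (SE; 95% interval 0.13 to 0.58; adjusted p = 0.0903 by limma). The call depended on how the libraries were scaled. When they were brought to the same total FPKM, Lhx6 was called V>D (log2 fold change 0.40, adjusted p = 0.0432 by limma), as 1.47% of all genes tested then were. When they were scaled to the general neuron markers it was called as well (0.48, adjusted p = 0.0127 by limma), together with Gad2 (0.28, adjusted p = 0.0416), as were 5.61% of all genes in that direction. That scaling moved the median of all genes by 0.12 on the log2 scale, relative to which Lhx6 was higher by 0.36 and Gad2 by 0.16. Under the headers' regions the log2 fold change of Lhx6 was 0.08 (adjusted p = 0.974 by limma), and in the 4 libraries with matching headers it was 0.44 (adjusted p = 0.416). A further gene, Gm27953, is annotated on part of the Lhx6 exons.

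Sox6, a factor that acts after Lhx6 in the same lineage, had a difference near 0. It was at 6.48, 5.75, 5.64 and 6.00 FPKM in the dorsal libraries and at 6.30, 5.95, 6.03 and 6.39 FPKM in the ventral libraries. Dorsal 1 was the highest of the 8, dorsal 2 and 3 were the lowest, and dorsal 4 lay among the ventral libraries. The log2 fold change was 0.04 ± 0.07 (SE; 95% interval -0.11 to 0.20; adjusted p = 0.834 by limma). Sox6 is also expressed by oligodendrocyte precursors, so their markers are given beside it. Of 8 such markers matched, 7 were tested and 1, Olig1, was called D>V (19.6 ± 1.02 to 14.3 ± 1.14 FPKM, adjusted p = 0.0102 by limma). The log2 ratio was above 0 for 4 of the 7, with a median of 0.04. Before adjustment 3 had p under 0.05 by limma, against 16.0% of all genes tested. Pdgfra and Cspg4, surface proteins of these cells, were singled out after their values had been seen. Both had every ventral library above every dorsal library, as in 4.95% of all genes tested. Pdgfra was at 8.32 ± 0.340 FPKM in dorsal and 9.99 ± 0.232 FPKM in ventral MEC (SD, n = 4 each; adjusted p = 0.0643 by limma). Cspg4 was at 1.13 ± 0.129 and 1.47 ± 0.143 FPKM (adjusted p = 0.340). C1ql1 was at 1.12 ± 0.129 and 1.66 ± 0.572 FPKM (adjusted p = 0.423 by limma) and Gpr17 at 5.83 ± 0.242 and 5.99 ± 0.432 FPKM (adjusted p = 0.889). Sox10 and Olig2 were lower in ventral MEC, like Olig1. Sox10 was at 5.22 ± 0.589 and 3.96 ± 0.325 FPKM (adjusted p = 0.0931 by limma) and Olig2 at 4.21 ± 0.674 and 3.65 ± 0.383 FPKM (adjusted p = 0.558). The summed level of the list, in which Olig1 was the most abundant gene, was 43.0 to 47.9 FPKM in the dorsal and 38.9 to 43.2 FPKM in the ventral libraries. Whether this list marks precursors apart from oligodendrocytes, whose 8 markers were all called D>V, was not tested. The part of precursors in the Sox6 values was not tested either.

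Prox1, a homeobox factor of interneurons from the caudal eminence, lay on the other side of 0. It was at 3.82, 4.73, 4.42 and 4.95 FPKM in the dorsal libraries and at 3.13, 3.77, 3.99 and 3.06 FPKM in the ventral libraries. Dorsal 1 fell inside the ventral range and the other 3 dorsal libraries lay above all ventral ones. The means were 4.48 ± 0.491 FPKM and 3.49 ± 0.462 FPKM (SD, n = 4 each), with a log2 fold change of -0.29 ± 0.10 (SE; 95% interval -0.52 to -0.06; adjusted p = 0.177 by limma). Prox1 is also a gene of dentate granule cells and of other cells, whose part in its values was not tested. Of 5 markers of dentate granule cells, 4 had a mean under 1 FPKM. The summed level of all 5 was 1.84 to 3.45 FPKM in the dorsal and 2.08 to 3.12 FPKM in the ventral libraries. The antisense gene Prox1os shares exon sequence with Prox1. Under the headers' regions the log2 fold change was 0.07 (adjusted p = 0.976 by limma), and in the 4 libraries with matching headers it was -0.22 (adjusted p = 0.708).

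Erbb4, the receptor through which neuregulins act on interneurons, was at 22.0, 19.8, 19.5 and 19.9 FPKM in the dorsal libraries and at 21.8, 22.5, 20.3 and 20.8 FPKM in the ventral libraries. Dorsal 1 stood above the other 3 dorsal libraries, which all lay below the ventral range. The log2 fold change was 0.07 ± 0.06 (SE; 95% interval -0.07 to 0.21; adjusted p = 0.671 by limma). The log2 fold changes of Dlx6, Sox6 and Erbb4 were on the other side of 0 under the headers' regions, at -0.32, -0.017 and -0.012 (adjusted p from 0.925 to 0.994 by limma). In the 4 libraries with matching headers Dlx6 was also below 0, at -0.05 (adjusted p = 0.967 by limma), and Sox6 and Erbb4 were at 0.02 and 0.06 (adjusted p = 0.966 and 0.909). Slc32a1 was at 0.06 under the headers' regions and 0.07 in the 4 libraries, and Dlx1 at 0.04 and 0.25 (adjusted p from 0.742 to 0.991 by limma).

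**Figure D2:**
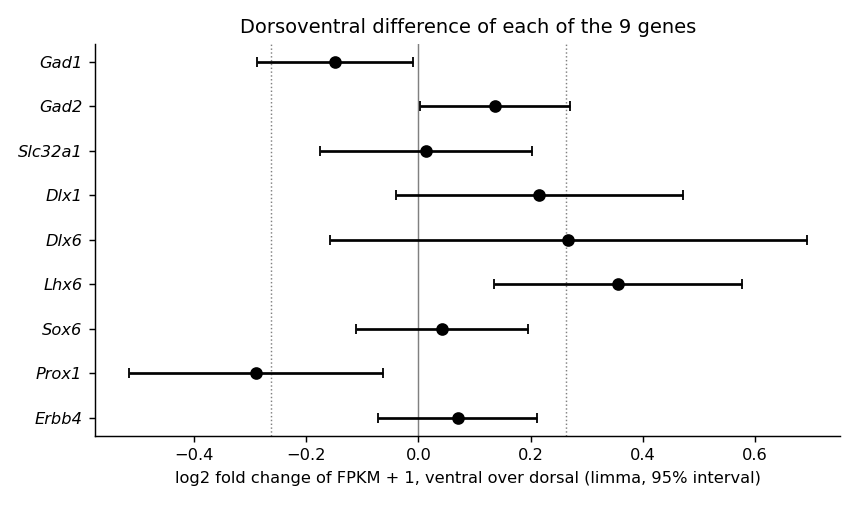
Log2 fold change of FPKM + 1, ventral over dorsal (horizontal axis), of each of the 9 genes, with points at the limma estimate, bars for its 95% interval and dotted lines at a difference of 20%. The intervals of Gad1 and Prox1 lie below 0 and those of Gad2 and Lhx6 above it, whereas the other 5 include 0, and none of the 9 genes passed adjustment over all genes tested.

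To set the lineage genes against the general GABAergic signal, ratios of FPKM were taken within each library, which any scaling of the libraries leaves as they are. There were 4 ratios, tested by a two-sided exact permutation test over the 70 ways to assign 4 of the 8 libraries to a region, whose smallest p is 0.0286. Lhx6 over Gad1 was 0.0699, 0.0814, 0.0899 and 0.101 in the dorsal libraries and 0.106, 0.116, 0.153 and 0.132 in the ventral libraries. Every ventral library was above every dorsal library. The ratio was 1.48 times as high in ventral MEC (log2 difference 0.57, exact permutation p = 0.0286, adjusted p = 0.0571 over the 4 ratios). With Gad2 in place of Gad1 the log2 difference was 0.28 (exact permutation, adjusted p = 0.114) and with Slc32a1 it was 0.40 (adjusted p = 0.0381), so that the size of this difference depended on which general gene was below the line. Before adjustment the p with Slc32a1 was 0.0286 (exact permutation), as with Gad1.

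Lhx6 over Prox1, with 1 gene for each lineage, had the largest log2 difference of the 4 ratios. Other genes of the caudal list, given below, did not all go with Prox1. It was 1.16, 1.05, 1.21 and 1.21 in the dorsal libraries and 1.91, 1.79, 1.94 and 2.36 in the ventral libraries. The regions did not overlap, and the lowest ventral library was well above the highest dorsal library. On average the ratio was 1.72 times as high in ventral MEC, with a log2 difference of 0.78 (exact permutation p = 0.0286, adjusted p = 0.0571). Both Lhx6 ratios were thus at the smallest p that this unpaired test allows. With 2 of the 4 ratios at it, adjustment cannot bring them under the threshold.

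For the other medial factor and for Prox1 the libraries overlapped. Sox6 over Gad1 was 0.0979 ± 0.00391 in dorsal and 0.113 ± 0.00796 in ventral MEC (SD, n = 4 each), with a log2 difference of 0.20 (exact permutation p = 0.0571, adjusted p = 0.0762). Over Gad2 the log2 difference of Sox6 was -0.090 (exact permutation, adjusted p = 0.286). Prox1 over Gad1 was 0.0737 ± 0.00976 in dorsal and 0.0638 ± 0.0111 in ventral MEC, with a log2 difference of -0.21 (exact permutation p = 0.229, adjusted p = 0.229). Over Gad2 it was -0.50 (exact permutation, adjusted p = 0.0571) and over Slc32a1 it was -0.38 (adjusted p = 0.0381). Before adjustment both had p = 0.0286 (exact permutation). The adjusted p was lower with Slc32a1 only because more ratios were then at the smallest p. Under the headers' regions the log2 differences were 0.07 for Lhx6 over Gad1, 0.01 for Lhx6 over Prox1, -0.046 for Sox6 over Gad1 and 0.063 for Prox1 over Gad1. In the 4 libraries with matching headers they were 0.64, 0.79, 0.15 and -0.15, where 2 against 2 libraries cannot give a p below 0.333.

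**Figure D3:**
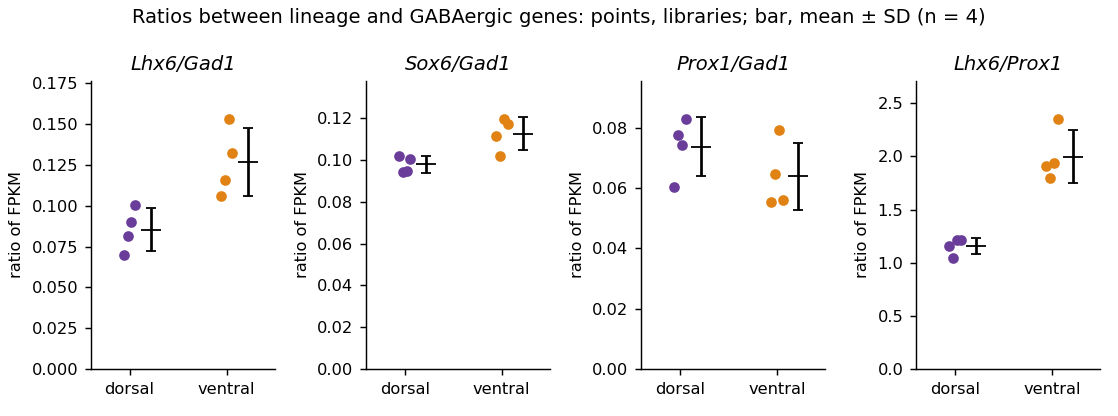
Ratios of FPKM between lineage genes and Gad1, and of Lhx6 to Prox1 (vertical axes, each from 0), in the 4 dorsal and 4 ventral libraries (points), with the mean ± SD of each region. For Lhx6/Gad1 and Lhx6/Prox1 all ventral libraries lie above all dorsal libraries, Lhx6/Prox1 at 1.79 to 2.36 against 1.05 to 1.21, whereas Sox6/Gad1 and Prox1/Gad1 overlap.

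Other genes of the same pathways give the setting of these values. Of 11 genes that handle GABA or its precursors, 10 were tested and none was called. Before adjustment 4 had p under 0.05 by limma, against 16.0% of all genes tested. The highest of the list was Glul, glutamine synthetase of astrocytes, at 293 ± 15.4 FPKM in dorsal and 246 ± 14.0 FPKM in ventral MEC (SD, n = 4 each; adjusted p = 0.0872 by limma). The median log2 ratio of the 10 genes was -0.03. Of 9 further genes of the eminence programme, 6 were tested and none was called. Before adjustment 1 had p under 0.05 by limma, against 16.0% of all genes tested. The median log2 ratio was 0.23. Dlx6as1, described above, was among these 6.

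In the lists of the separate lineages, 1 gene each was called. In the medial list, of 7 genes, 5 were tested. Nxph1, a secreted ligand of neurexins that medial-eminence interneurons express, rose from 22.6 ± 1.33 FPKM in dorsal to 30.7 ± 2.36 FPKM in ventral MEC (SD, n = 4 each; log2 fold change 0.42, adjusted p = 0.0115 by limma). The other 4 were not called, among them the most abundant, Satb1, a chromatin organizer also expressed by excitatory neurons, at 288 ± 17.1 and 261 ± 45.4 FPKM, and Zeb2, at 44.2 ± 6.59 and 42.1 ± 4.39 FPKM. Nkx2-1 and Lhx8, which define the medial eminence in the embryo, were not tested, Nkx2-1 at or under 0.109 FPKM in each library and Lhx8 listed at 0 in all 8. The median log2 ratio of the list was -0.07.

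In the caudal list, of 6 genes, 4 were tested. Nr2f2, the nuclear receptor COUP-TFII, rose from 5.43 ± 0.301 FPKM to 11.1 ± 0.832 FPKM (log2 fold change 0.91, adjusted p = 0.000275 by limma), in the direction opposite to the difference of Prox1. Nr2f2 is not limited to interneurons. Nr2f1, its paralogue, was at 9.65 ± 1.18 and 9.50 ± 1.39 FPKM and was not called (adjusted p = 0.952 by limma). Htr3a was at 1.37 ± 0.349 and 1.82 ± 0.0684 FPKM (adjusted p = 0.323 by limma). Its ventral libraries were all above its dorsal libraries, as in 4.95% of all genes tested. Adarb2 was at 5.64 ± 0.343 and 5.79 ± 0.996 FPKM (adjusted p = 0.952 by limma). The median log2 ratio of the list was 0.22, opposite in sign to Prox1. Among neuregulins and their receptors, 6 of 10 genes were tested and none was called. Before adjustment 3 had p under 0.05 by limma, against 16.0% of all genes tested. Of these, Nrg1 was higher in ventral MEC, and Nrg4 and Erbb3 were lower. The most abundant of the list were Nrg3, a neuregulin ligand, at 28.5 ± 2.48 and 25.7 ± 3.39 FPKM (adjusted p = 0.525 by limma), and Nrg1, at 5.62 ± 0.651 and 6.94 ± 0.948 FPKM (adjusted p = 0.267).

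Among markers of interneuron classes, 10 of 11 were tested, 3 were called V>D and 3 D>V, and those of the medial lineage were called in opposite directions. Sst rose from 109 ± 29.4 FPKM in dorsal to 220 ± 41.1 FPKM in ventral MEC (adjusted p = 0.0147 by limma), while Pvalb was lower in ventral MEC, at 6.63 ± 0.961 FPKM against 15.7 ± 2.15 FPKM (adjusted p = 0.000942). Calb2, calretinin, rose from 0.785 ± 0.175 to 3.16 ± 0.308 FPKM (adjusted p = 0.000408 by limma) and Tac1, the substance P precursor, from 3.88 ± 0.629 to 7.93 ± 0.728 FPKM (adjusted p = 0.00178). Npy was lower in ventral MEC, at 9.08 ± 1.87 FPKM against 18.4 ± 2.15 FPKM (adjusted p = 0.00279 by limma), as was Lamp5, at 28.3 ± 1.49 against 43.3 ± 2.65 FPKM (adjusted p = 0.00139). Cck, the most abundant of the list, was at 454 ± 46.3 and 460 ± 64.1 FPKM and was not called. Its mean over the 8 libraries was 457 FPKM, against 57.9 FPKM for Gad1. The call of Sst was lost without dorsal 2 (adjusted p = 0.0553 by limma). Of the classes these genes mark, the data hold no count of cells. Whether the transcripts of these genes came from interneurons alone was not tested.

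For the other cells of the tissue, 2 of 9 markers of glutamatergic neurons were called, both D>V. They were Slc17a6, a vesicular glutamate transporter, at 10.8 ± 0.255 and 7.21 ± 0.474 FPKM (adjusted p = 0.00235 by limma), and Slc30a3, a vesicular zinc transporter, at 9.77 ± 1.25 and 6.45 ± 0.721 FPKM (adjusted p = 0.0191), whose call was lost when dorsal 1, dorsal 2, dorsal 3 or ventral 3 was left out (adjusted p up to 0.0608), with the same total FPKM (0.0658) and with scaling to neuron markers (0.0648). The most abundant of that list, Camk2a at 388 ± 70.4 and 426 ± 65.4 FPKM and Slc17a7 at 107 ± 8.97 and 105 ± 9.67 FPKM, were not called. GABAergic neurons of the striatal type are another possible source of the 9 genes. Of 9 of their markers 7 were tested and 1 was called, Ppp1r1b, which was lower in ventral MEC (10.8 ± 1.39 and 6.30 ± 0.966 FPKM, adjusted p = 0.0101 by limma). Of the 7, 5 had a log2 ratio above 0 and the median was 0.25. Before adjustment 4 had p under 0.05 by limma, against 16.0% of all genes tested. The most abundant, Meis2, was at 46.6 ± 7.37 FPKM in dorsal and 45.7 ± 2.25 FPKM in ventral MEC and was not called, and Drd2 and Adora2a had means under 1 FPKM. Their summed level, most of it Meis2, was 68.6 to 87.6 FPKM in the dorsal and 72.1 to 78.7 FPKM in the ventral libraries. No marker of astrocytes (6 tested), microglia (6), endothelial cells (5), dentate granule cells (1) or choroid plexus (1) was called. Before adjustment 3, 2, 1, 0 and 0 of them had p under 0.05 by limma, against 16.0% of all genes tested. Under the headers' regions and in the 4 libraries with matching headers, none of the list genes named as called here kept its call.

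**Figure D4:**
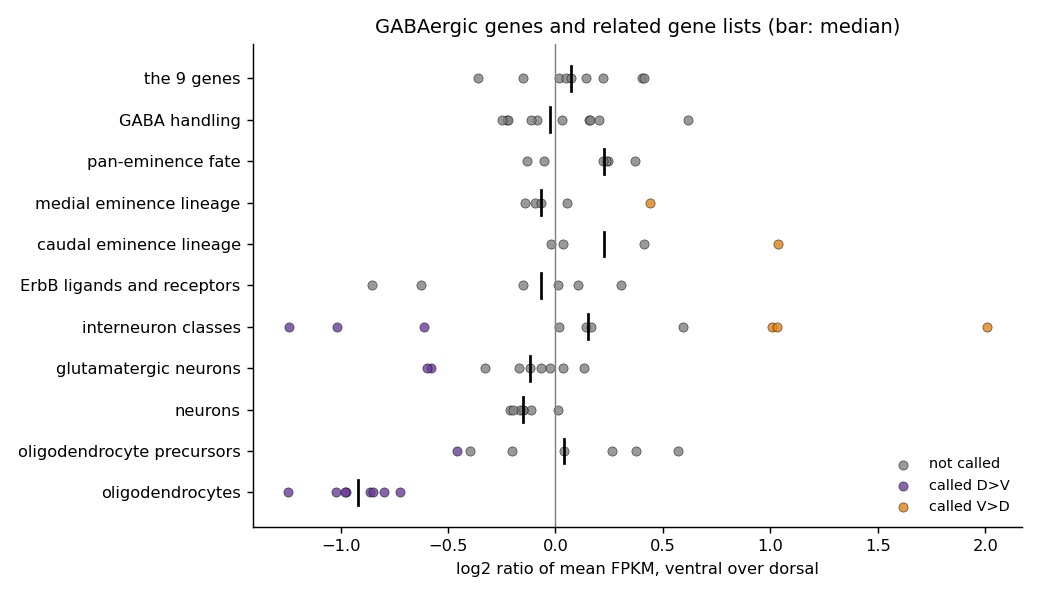
Log2 ratio of mean FPKM, ventral over dorsal (horizontal axis), of the tested genes of each list (rows), with points coloured by the limma call and a bar at the median. The 9 genes lie between -0.36 and 0.41 and none is called, the single calls of the medial and caudal lists are Nxph1 and Nr2f2, and all 8 oligodendrocyte genes lie between -1.24 and -0.72.

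The genes whose levels over the 8 libraries were most like those of Gad1 and Lhx6 were sought among 8702 other genes with a mean of at least 5 FPKM. They were chosen for a high correlation out of many, over libraries that differ by region, and the values are a description. For Lhx6 they were Sst (Pearson's r of log2(FPKM + 1) = 0.990), 1810041L15Rik (0.986) and Eps8 (0.984). Sst was at 81.5, 97.1, 109 and 150 FPKM in the dorsal libraries and at 169, 207, 262 and 243 FPKM in the ventral libraries, in the order of Lhx6 in both regions except that dorsal 4 and ventral 1, nearly equal for Lhx6, were reversed. After each region's mean was taken off, r between Lhx6 and Sst was 0.986. For Gad1 the genes were RP24-271M20.8 (r = 0.993), Oxr1 (0.982), which protects from oxidative damage, and Abca5 (0.978), a lipid transporter. Oxr1 was at 239 FPKM in dorsal and 192 FPKM in ventral MEC on average and was not called (adjusted p = 0.0594 by limma). Neither general GABAergic gene, Gad2 or Slc32a1, entered this search, since it was over other genes only.

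**Figure D5:**
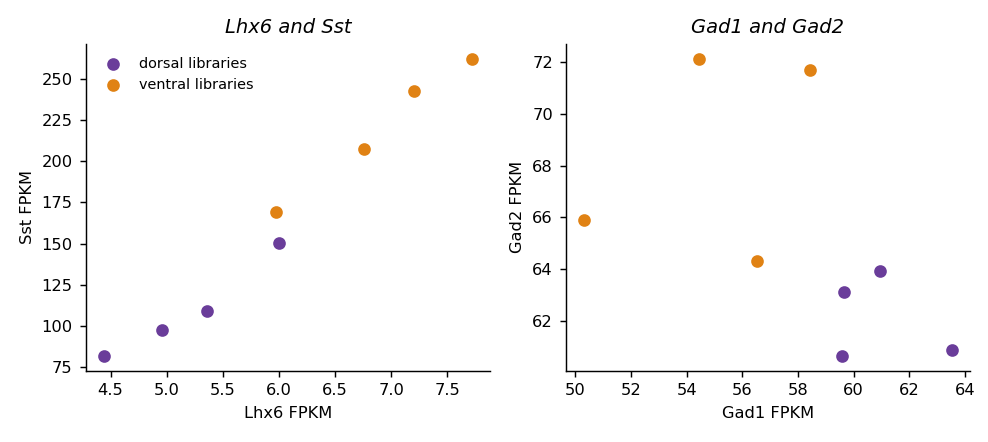
FPKM of Sst against Lhx6 (left) and of Gad2 against Gad1 (right) in the 4 dorsal and 4 ventral libraries (points, axes not from 0). Sst and Lhx6 lie along a single line that runs from dorsal 1, at 4.44 FPKM of Lhx6, to ventral 3, at 7.72 FPKM, whereas for Gad1 and Gad2 the regions form separate groups, the ventral group lower in Gad1 and higher in Gad2.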

How the data were processed

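RNA-Seq libraries were made by the study's authors from 120 ng of RNA (RNA integrity numbers 7.1 to 8.5). They processed reads with CASAVA 1.8, aligned paired-end fragments with TopHat2 2.0.8 to the Ensembl mouse genome (GRCm38) and ran Cuffdiff 2, summing the transcripts of a gene. The deposited FPKM values of the authors are scaled between libraries by that program, and the depth in fragments is not given here. The authors' comparison table was used for symbols, status and the mean FPKM of each condition, and its fold changes, p-values and q-values were not used. A table of estimated fragments names libraries by condition and replicate number, which match no single sample's labels, so that its 4 columns of values per library stayed out and no count test was run.

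Genes with too few alignments for the authors' test were left out (14989 remained), as were genes with a mean FPKM under 1. Regions were compared unpaired by limma 3.58.1 in R 4.3.3 with a mean-variance trend on log2(FPKM + 1), two-sided, with Benjamini-Hochberg adjustment over all genes tested, and a call needed an adjusted p under 0.05 together with regional mean FPKM that differed by over 20% (0.263 in log2). Adding 1 before the logarithm makes the fold changes of low genes too small. Tested on simulated data for this comparison, over 13674 genes of which 200 were changed, the fit recovered 97% at a log2 change of 1, with 20 false calls, and 66% at 0.5, with 8 false calls. The changed genes were drawn from the more highly expressed genes only. Changes smaller than 0.5, such as those of the 9 genes, were not simulated, so their recovery is not known. Ratios were tested with exact permutation tests over libraries, adjusted over the 4 ratios. The steps between low FPKM values (genes averaging under 0.1) gave the relative depth. Gene positions are those of GENCODE M21. Python 3.11.15, NumPy 2.4.6, pandas 2.3.3 and matplotlib 3.10.9 were used.

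The 9 genes and all lists were chosen with earlier results of these data known. Named are the 9 genes, from each list the genes called and the most abundant ones with a few others, and for likeness the 3 genes with the highest correlation with each of Gad1 and Lhx6. Some genes that this rule takes are not reported here. Oligodendrocyte, general neuron, astrocyte and other marker lists are given by counts and ranges where no result turns on a gene. Lhx8 is listed at 0, and a value of 0 in these files can be a failed estimate. Which pool of mice a library came from is not given in the labels, so p-values measure the spread between these libraries. Alternatives covered the constant, the filters, the scaling, the variance model, the regions named by the headers, the general gene in each ratio and leaving out each library.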

Additional observations from a re-analysis of the deposited data

Results flagged for a closer look

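Erbb4 in dorsal MEC held a library far from the others. Dorsal 1 was at 22.0 FPKM, and its gap to the next dorsal library was 0.837 of the range of the region, above the 95% critical value of Dixon's test for 4 samples. Among the 26 groups of 4 libraries examined in this way, covering the 9 genes and the 4 ratios in both regions, it was the only group so marked, and chance marks about 1 group in 20. Without dorsal 1 the log2 fold change of Erbb4 was 0.11 in place of 0.07 (adjusted p = 0.535 by limma).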

How the results depend on the processing

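None of the 9 genes was called D>V under any of the alternatives in which it was tested (19, or 18 for Dlx6 and Prox1, which a minimum mean of 5 FPKM left out), and the count called V>D was 0 except with the same total FPKM (1, Lhx6) and with scaling to neuron markers (2, Lhx6 and Gad2). Leaving out each library gave 0 calls among them, with adjusted p of Lhx6 from 0.0713 to 0.209 by limma. Slc32a1 changed sign without dorsal 1 (-0.04) or ventral 4 (-0.04), and Dlx6 in the 4 libraries with matching headers (-0.05). Over all genes, the calls D>V and V>D were 294 and 198, and became 195 and 201 with the same total FPKM, 171 and 768 with scaling to neuron markers, 1 and 0 under the headers' regions and 0 and 0 in the 4 libraries with matching headers. Leaving out a library gave 157 to 341 D>V and 91 to 191 V>D. With a constant of 1 the log2 differences of Lhx6/Gad1, Sox6/Gad1 and Lhx6/Prox1 were 0.50, 0.19 and 0.65 (exact permutation, adjusted p = 0.0381 each). With Slc32a1 as the general gene those of Lhx6 and Prox1 were 0.40 and -0.38. Sox6 changed sign over Gad2 (-0.090) and under the headers' regions (-0.046), and Prox1/Gad1 under the headers' regions (0.063). Leaving out each library gave 0.47 to 0.65 for Lhx6/Gad1, 0.17 to 0.25 for Sox6/Gad1, -0.32 to -0.15 for Prox1/Gad1 and 0.70 to 0.83 for Lhx6/Prox1. Without ventral 2, 3 ratios passed the threshold (0.61, 0.25 and 0.83, adjusted p = 0.0381 each, exact permutation). Without ventral 2 and with the constant of 1, the p of Lhx6/Gad1 and Lhx6/Prox1 before adjustment stayed at 0.0286 (exact permutation). That of Sox6/Gad1 went from 0.0571 to 0.0286. The adjusted p of the Lhx6 ratios fell because 3 ratios in place of 2 were at the smallest p. The ratios in the 4 libraries were added after seeing the data. No paired analysis was possible because the labels do not say which pool of mice a library came from. FPKM keeps no fragment number, so no counting interval is given.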
